A study of Mus musculus with 2 samples.

Results

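The miR-15/16 family is a set of mouse miRNAs that carry the same seed, the stretch of the guide strand that pairs with target mRNAs. Its 6 members with an assay on the plate, mmu-miR-15a, mmu-miR-15b, mmu-miR-16, mmu-miR-195, mmu-miR-322 and mmu-miR-497 (written below without the prefix for mouse), were chosen by name from the 376 miRNA assays of the authors' deposited table. They were measured in the RNA captured by a probe for Stat3 mRNA and in that captured by a control probe, in a search for miRNAs associated with Stat3 mRNA in macrophages. Both samples were made from RAW264.7 cells, a transformed mouse macrophage line, with no further treatment named in the labels than 24 hours of transfection with the probe, after which the captured RNA was recovered on streptavidin beads. There was 1 pull-down for either probe, read on a real-time PCR plate of its own. Pull-down, plate and probe therefore cannot be told apart, and no difference below has a replicate check or a p-value.

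miRNAs of this family are best known as brakes on the cell cycle and on cell survival. They bind mRNAs such as those of the cyclins D1 and E1 and of the anti-apoptotic protein Bcl2, and the human genes for miR-15a and miR-16 are lost in many chronic lymphocytic leukaemias. Because the seed is shared, the members are generally predicted to recognise largely the same target sites, and they differ in the bases that follow the seed and in the genes that encode them.

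The mature sequences are shown because they define the family and show how far its members differ outside the shared seed. They are the entries of RefSeq (build GRCm38.p6), in which miR-195 and miR-497 were taken as the entries named miR-195a and miR-497a. The capitals mark the word AGCAGCA at bases 2 to 8.
miR-15a: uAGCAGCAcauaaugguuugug
miR-15b: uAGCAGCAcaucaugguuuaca
miR-16: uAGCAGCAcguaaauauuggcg
miR-195: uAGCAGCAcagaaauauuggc
miR-322: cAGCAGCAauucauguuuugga
miR-497: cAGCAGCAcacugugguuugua
The deposited table gives older names without an arm, and these were taken as the 5p arms. The name miR-322 has stood for either arm of its precursor over time, so its sequence is the least certain of the 6. The seed word stands at bases 2 to 8 in 10 of 1679 mature mouse miRNAs of the RefSeq table (0.596%). The other 4 of the 10 are miR-195b, miR-6342, miR-6353 and miR-6419, and no assay of the plate carries their names. miR-15a, miR-15b, miR-16 and miR-195 begin with U, miR-322 and miR-497 with C.

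The members lie in short clusters. miR-15a (chr14:61632075-61632096) and a copy of miR-16 (chr14:61631936-61631957) start 139 bases apart on the minus strand, inside the non-coding gene Dleu2. miR-15b (chr3:69009775-69009796) and the other copy of miR-16 (chr3:69009918-69009939) start 143 bases apart on the plus strand, inside Smc4, which encodes a condensin subunit. miR-497 (chr11:70234730-70234751) and miR-195 (chr11:70235062-70235082) start 332 bases apart on the plus strand. miR-322 (chrX:53054306-53054327, minus strand), the mouse counterpart of human miR-424, starts 279 bases from miR-503 inside the non-coding gene C430049B03Rik. Mature miR-16 is the same molecule from both of its genes, so its assay reads their sum.

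All 6 members were measured in both pull-downs, that is, their threshold cycle (Ct, the PCR cycle at which the signal crosses a fixed level) was below 35. A lower Ct means more template, by a factor of 2 per cycle if amplification is complete. The ratio of Stat3 probe over control probe is given on the scale of the authors' deposited table. That scale adds 0.7 cycles to the Ct difference of every assay, a factor of 1.62. On it the UniSp6 spike-in had a log2 ratio of 0.0027, from Ct values of 20.47 (control) and 21.17 (Stat3). The offset thus nearly cancels the raw difference of UniSp6 between the plates. The well taken as miR-451, the other candidate for UniSp6, had a log2 ratio of 0.0031. Whether the authors took the offset from UniSp6 was not tested. The only repeated measurement on these plates is the UniSp3 calibrator, a fixed template in 3 wells of each plate. Its difference between plates varied by an SD of 0.97 cycles (n = 3 wells) and over a range of 1.93 cycles, or 3.82-fold. The control Ct minus the Stat3 Ct was 0.02 in plate row C, -0.76 in row E and -1.91 in row B, so the calibrator had a higher Ct on the Stat3 plate on average (-0.89). The well in row B sets the range: between the other 2 wells it was 0.78 cycles (1.72-fold). The spread covers the well and the PCR, not the pull-down. The calibrator Ct was 21.18 to 21.76 on the control plate and 21.48 to 23.67 on the Stat3 plate, lower than that of any member. The spread of wells at the higher Ct of the members was not measured.

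miR-15b stood apart from the 5 other members. Its Ct was 30.74 in the control pull-down and 25.44 in the Stat3 pull-down, which is a ratio of 64.0-fold. The difference of 5.30 cycles was larger than the whole width of the calibrator range.

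miR-16, the member with the lowest Ct in the control pull-down, gave a Ct of 27.44 there and 26.07 in the Stat3 pull-down, or 4.22-fold. miR-322 had Ct values of 31.30 and 30.39, a ratio of 3.06-fold. miR-195 had Ct values of 33.24 and 32.68, a ratio of 2.38-fold. For all 3 the Ct was lower with the Stat3 probe, by 1.38 cycles for miR-16, 0.91 for miR-322 and 0.55 for miR-195, against -1.91 to 0.02 for the calibrator wells. Each of these differences was smaller than the width of the calibrator range, 1.93 cycles, and lay above all 3 calibrator values.

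miR-15a, the closest relative of miR-15b in sequence, gave a Ct of 29.68 in the control and 29.40 in the Stat3 pull-down, or 1.97-fold. Most of that ratio is the offset, since the raw difference was 0.28 cycles. miR-497 had Ct values of 34.32 and 34.85, a ratio of 1.12-fold. It was the 1 member with a higher raw Ct in the Stat3 pull-down (control minus Stat3, -0.53 cycles), and it lay only 0.68 and 0.15 cycles under the limit of 35.

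**Figure D1:**
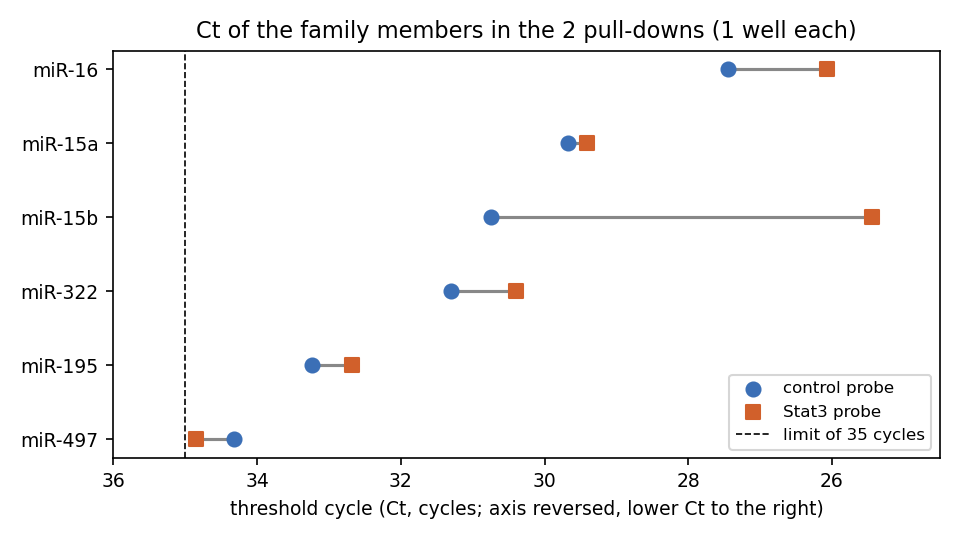
Threshold cycle of each member (vertical axis) with the control probe (circles) and the Stat3 probe (squares), 1 well each, in cycles on a reversed axis, with the limit of 35 cycles dashed. miR-15b moved from 30.74 to 25.44, while the other 5 members moved by at most 1.38 cycles.

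The members were ordered alike by Ct in both pull-downs except for miR-15b. With the control probe the order from the lowest Ct was miR-16, miR-15a, miR-15b, miR-322, miR-195 and miR-497. With the Stat3 probe miR-15b came first, ahead of miR-16 and miR-15a, and the other members kept their order. miR-15b lay 3.30 cycles above miR-16 in the control pull-down and 0.62 cycles below it in the Stat3 pull-down. The calibrator wells spanned 0.57 cycles on the control and 2.20 on the Stat3 plate. Among neighbours in the order, miR-15b and miR-322 on the control plate (0.56 cycles apart) lay within that spread, as did miR-15b and miR-16 (0.62), miR-15a and miR-322 (0.99) and miR-195 and miR-497 (2.17) on the Stat3 plate. Without the calibrator well in row B the spans were 0.31 and 0.47 cycles, and all neighbours lay farther apart than that. Assays can differ in efficiency, so these are orders of Ct and not of abundance.

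The 6 log2 ratios had a median of 1.43 (2.70-fold) and spanned 5.83, or 56.9-fold. Without miR-15b, left out because of its ratio, the median of the other 5 was 1.25 (2.38-fold) and their span 1.91, against a calibrator range of 1.93 over 3 wells and 0.78 without the well in row B. The distance from miR-15b to the next member, miR-16, was 3.92 on the log2 scale (15.2-fold). Of the 15 pairs of members, the 5 with miR-15b differed in log2 ratio by 3.92 to 5.83. The 10 without it differed by 0.28 to 1.91. None of the 10 passed the range of 3 calibrator wells, and 6 passed the 0.78 left without the well in row B. That 0.78 rests on 2 wells, in rows C and E. Every pair of the 10 with miR-497 was among the 6, and miR-497 lies in row P, in the same set of alternate rows as row B (plate rows are described below).

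Pairs of like sequence did not always have like ratios. miR-16 and miR-195 are identical at 19 of 21 positions compared from the 5′ end without gaps, with the changes G10A and U11G from miR-16 to miR-195, and their log2 ratios differed by 0.82. miR-15a and miR-15b are identical at 18 of 22 positions, with the changes A12C, G20A, U21C and G22A from miR-15a to miR-15b (positions counted from the 5′ end). Their log2 ratios differed by 5.02 (32.5-fold), although both wells lie in plate row K. miR-16 and miR-497, the least alike pair with 11 of 22 identical positions, differed by 1.91. Whether any of these assays also reads a relative was not tested, and primer sequences were not used here.

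Members from the same cluster did not share a ratio throughout. miR-15b exceeded its cluster partner miR-16 by 3.92 on the log2 scale, and miR-16 exceeded its other partner miR-15a by 1.10. miR-195 exceeded miR-497 by 1.08. The difference between miR-15b and miR-16 was larger than the calibrator range of 1.93, and the other 2 were larger only than the 0.78 without the well in row B. Relative to the median of their own plate rows, miR-195 lay below miR-497.

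Set against all miRNAs measured in both pull-downs, the family apart from miR-15b lay at or below the middle. The 100 such assays had a median ratio of 4.22-fold. miR-15b was the 3rd highest of the 100 by ratio and had the 2nd lowest Ct with the Stat3 probe, against rank 37 with the control probe. miR-16 ranked 51, miR-322 58, miR-195 66, miR-15a 75 and miR-497 89 by ratio. Of the 6 members, 4 were at least 2-fold higher with the Stat3 probe (66.7%), against 73.0% of all 100 assays, and 2 were at least 4-fold higher, against 53.0%. No member was at least 2-fold lower, a size reached by 2.00% of assays. The shares of the members at 2-fold and 4-fold lay near or below those of all assays. Relative to the median of the 100, miR-15b was 15.2-fold higher, a level of at least 2-fold above that median being reached by 16.0% of assays. miR-15a and miR-497 lay at least 2-fold below it, as did 30.0% of assays, with log2 differences of -1.10 and -1.91.

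**Figure D2:**
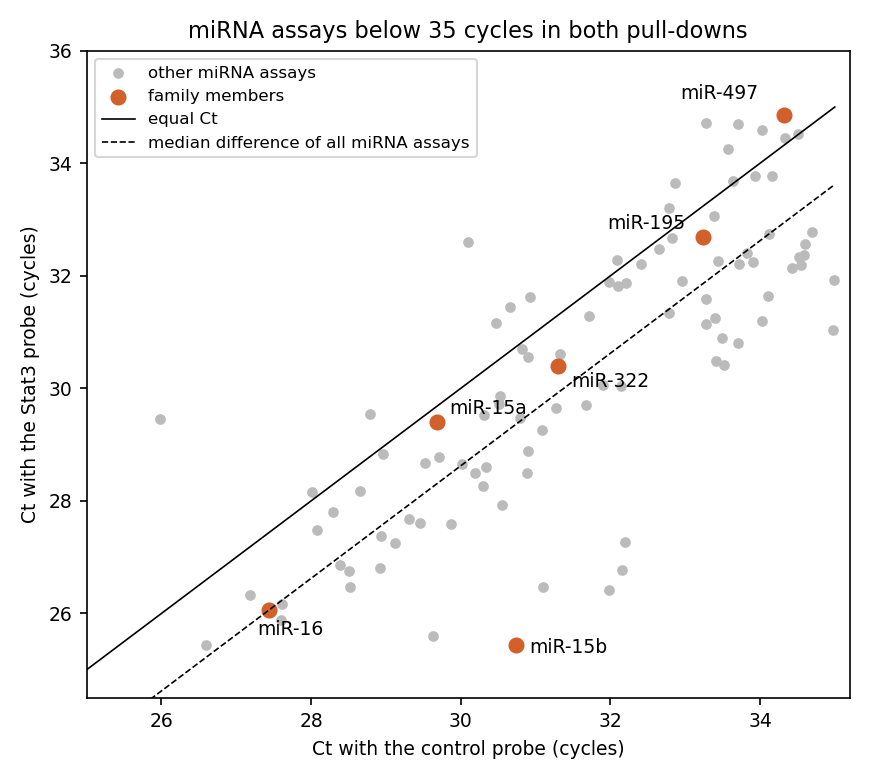
Ct with the control probe (horizontal axis, cycles) against Ct with the Stat3 probe (vertical axis, cycles) for the 100 miRNA assays below 35 cycles in both, with family members coloured, equal Ct as a solid line and the median difference of all assays as a dashed line. miR-16 lies on the dashed line (4.22-fold), miR-15b lies far below it (64.0-fold), and miR-497 lies above the line of equal Ct.

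The ratio differed with the position on the plate. Among assays measured in both pull-downs, the median was 5.01-fold for the 74 in odd plate rows (A to O, every other row) and 1.80-fold for the 26 in even rows (B to P), a log2 difference of 1.47. miR-15a and miR-15b (row K), miR-16 (row E) and miR-195 (row I) lie in odd rows, miR-322 (row D) and miR-497 (row P) in even rows. Of the calibrator wells, 2 (rows C and E) lie in odd rows. The well in row B, with the lowest value, is the only 1 in even rows. Relative to the median of its own set of rows, miR-15b was still 12.8-fold higher (log2 3.67) and ranked 3 of 74. miR-322 was the 9th of 26, 1.69-fold above its rows, whereas it lay below the median of all 100. miR-16 was at -0.25, miR-497 at -0.68, miR-195 at -1.07 and miR-15a at -1.35 on this log2 scale. At least 2-fold above the own-row median lay 1 member, against 18.0% of the 100 assays, and at least 2-fold below it lay 2, against 22.0%. The span of the family on this scale was 5.02, and 2.11 without miR-15b. The largest of the 10 pair differences without miR-15b was then that of miR-322 and miR-15a, also 2.11, past the calibrator range of 1.93, which no such pair passed on the deposited scale. The part of the plate rows in the ratios was not tested.

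The wider group of miRNAs with related seeds was followed on the plate through miR-103, miR-107 and miR-503. The sequences show how the seed word shifts or changes in these relatives. Capitals mark AGCAGCA at bases 1 to 7 in miR-103 and miR-107, and bases 2 to 8 in miR-503, which differ from the family's seed by A8G, written from miR-15a to miR-503.
miR-103: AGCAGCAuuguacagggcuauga
miR-107: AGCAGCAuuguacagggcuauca
miR-503: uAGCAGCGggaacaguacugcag
miR-107 had Ct values of 31.33 and 30.61, a ratio of 2.69-fold, close to the family median of 2.70-fold. miR-103, which differs from it by G22C (from miR-103 to miR-107), had Ct values of 28.01 and 28.16, a ratio of 1.47-fold. miR-503, the cluster neighbour of miR-322, was measured only with the Stat3 probe. Its Ct was 33.36 there and 35.31 with the control probe, so that with the control at 35 it was at least 5.06-fold higher. The ratios of miR-103 and miR-107 lay far below the 64.0-fold of miR-15b, and for miR-503 only the lower bound of 5.06-fold is known.

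Of the other miRNAs of the X-chromosomal cluster of miR-322, miR-351 alone was measured in both pull-downs. Of the 7 names listed for it, 4 were on the plate. miR-351 had Ct values of 31.98 and 31.89, a ratio of 1.73-fold, near the 1.80-fold median of even plate rows, where it lies. No well with a Ct below 35 could be matched to the assays for miR-450a, miR-450b-5p and miR-542-5p. A rat-named assay of miR-450a gave 34.18 cycles in the control pull-down and no Ct in the other. No assay carries the name of the opposite arm of a family precursor, so guide and passenger strands could not be compared.

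Spans of log2 ratio over the measured members of 4 other seed families were below that of the miR-15/16 family with miR-15b. The 8 measured members of the let-7 family spanned 3.13, from 0.964-fold for let-7f to 8.46-fold for let-7e. The spans were 1.52 over 4 members of the miR-17 seed family, 1.75 over 3 of miR-29 and 1.38 over 3 of miR-30, against 5.83 over the 6 members of the miR-15/16 family. These spans leave out miR-30e and miR-30d, whose Ct was below 35 in the Stat3 pull-down alone. With them at their bounds, at least 15.2-fold for miR-30d, the miR-30 span is at least 2.38, more than the 1.91 of the miR-15/16 family without miR-15b. Its median of 2.70-fold lay above that of miR-29 (2.13-fold) and below those of the miR-17 seed family (3.19-fold), miR-30 (5.76-fold) and let-7 (5.87-fold). With 1 pull-down per probe these differences between families were not tested, and a span grows with the number of members.

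**Figure D3:**
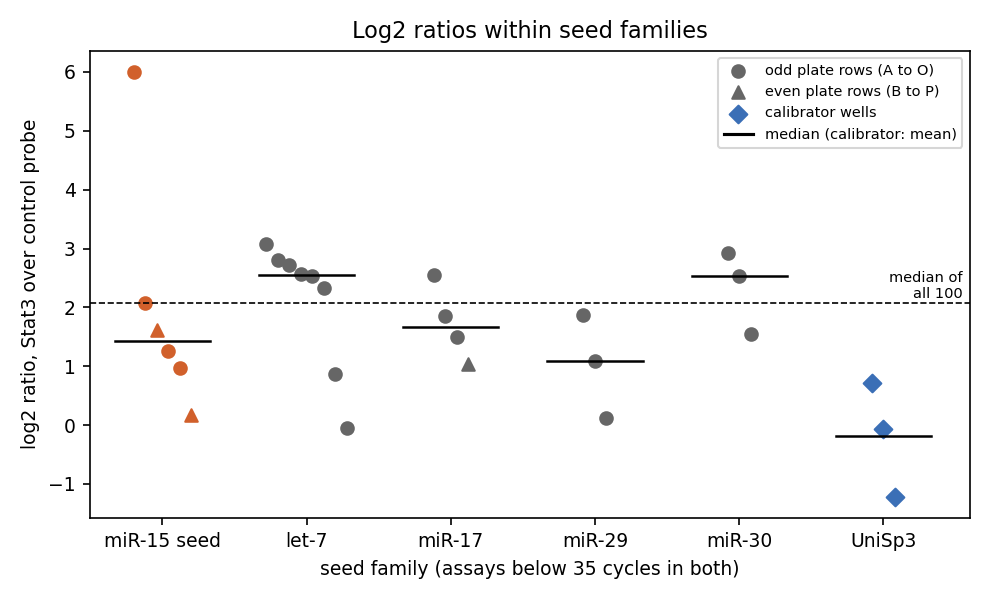
Log2 ratio of Stat3 over control probe (vertical axis) for each member of 5 seed families measured in both pull-downs, and for the 3 UniSp3 calibrator wells; circles mark odd and triangles even plate rows, bars mark medians (the mean for UniSp3) and the dashed line is the median of 100 miRNA assays. miR-15b (64.0-fold) is the highest point shown, and the other 5 members of its family lie between 0.17 and 2.08.

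For each member, the 3 assays nearest to it over both Ct values were identified, a measure of likeness over only 2 pull-downs, in which near assays necessarily have near ratios. The neighbours of miR-15b were distant: miR-99b at 1.09 cycles, miR-125a-5p at 1.12 and miR-25 at 1.57, with ratios of 40.1-fold, 26.6-fold and 77.2-fold. miR-16 had close neighbours, miR-221 at 0.19 cycles, miR-24 at 0.25 and miR-21 at 0.36. miR-322 lay 0.22 cycles from miR-107, and miR-484 and miR-18a followed. miR-15a lay nearest to miR-19b, miR-17 and miR-30c at 0.62 to 0.74 cycles. miR-195 lay nearest to miR-130b, the rat-named miR-223 assay and miR-29a, and miR-497 nearest to miR-338-3p, miR-29b and the rat-named miR-200c assay, all within 0.47 cycles. No member had another member among its 3 nearest assays.

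No well beside miR-15b on the plate came near its Stat3 Ct of 25.44. The well to its right, miR-744, gave 36.14 cycles in the control and 34.65 in the Stat3 pull-down. The well above, a rat-named miR-338 assay, had Ct values of 34.69 and 32.79, and the well to the left, with no name tied to it, 35.08 and 38.36. The well below was undetermined on both plates. Of the wells beside the other members, 4 had a name tied to them, with ratios of at most 1.43-fold for miR-676 (beside miR-15a, measured only with the control probe), 2.83-fold for miR-17 (beside miR-16), 1.80-fold for the rat-named miR-223 assay (beside miR-322) and 8.28-fold for miR-10a (beside miR-497). None of the 6 member wells carried an instrument warning on either plate.

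The direction of most members depended on the scale, and that of miR-15b did not in the 13 settings run, of which the changes of cap could not move it. Apart from the own-row scale, the scales move all assays together: the median log2 ratio of the 100 assays was 2.08 as deposited, 1.38 without the offset, -0.04 relative to U6, 2.26 relative to the UniSp3 wells and -0.66 relative to the 3 reference miRNAs named next. On raw Ct, without the offset, 2 members were at least 2-fold higher, miR-15b and miR-16, against 56.0% of all 100 assays. The 3 small nuclear RNAs on the plate did not share a ratio: RNU5G was at 0.472-fold and RNU1A1 at 0.699-fold, while U6 was at 4.33-fold. Relative to U6, the log2 ratio was 3.88 for miR-15b and between -0.04 and -1.95 for the other 5. Relative to RNU1A1 and RNU5G, scales added after the data were seen, all 6 members lay above 0, from 0.68 and 1.25 for miR-497 to 6.52 and 7.08 for miR-15b. The median of the 100 assays was 2.59 and 3.16 on these scales. Relative to the UniSp3 wells, the members ran from 0.36 for miR-497 to 6.19 for miR-15b, against the median of 2.26 for the 100 assays. Relative to 3 common reference miRNAs, miR-423-3p, miR-191 and miR-103, miR-15b was at 3.26 and the other 5 lay between -0.66 and -2.57. That reference rests on miR-423-3p, itself 49.5-fold higher with the Stat3 probe: against miR-103 and miR-191 alone, a choice made after that ratio was seen, miR-15b was at 4.71, miR-16 at 0.79, miR-322 at 0.32, miR-195 at -0.04, miR-15a at -0.31 and miR-497 at -1.12. Whether more of a miRNA came down with each Stat3 transcript or more RNA was recovered in all cannot be told apart.

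**Figure D4:**
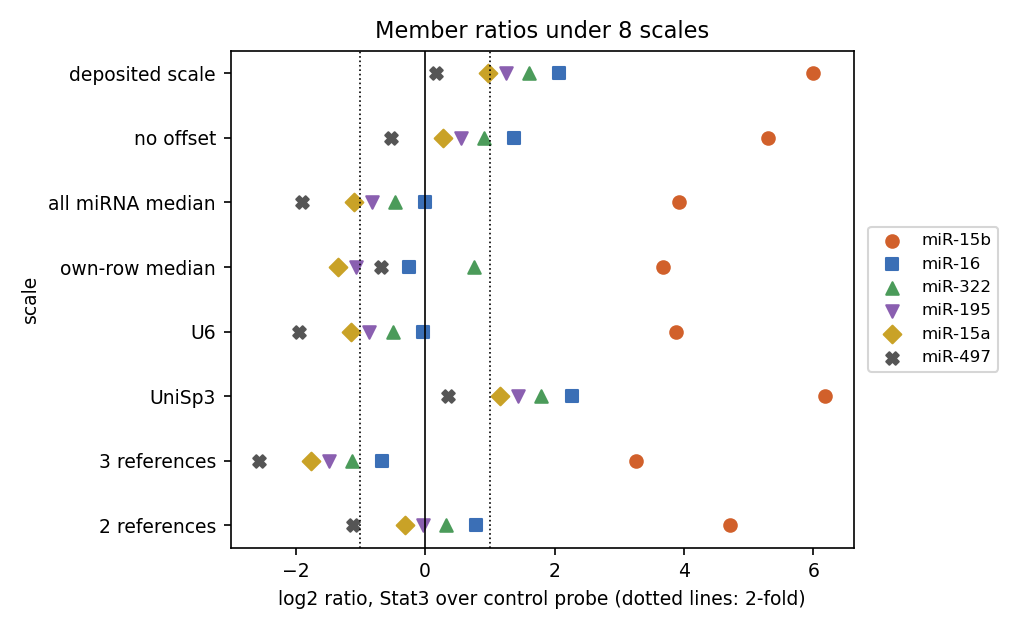
Log2 ratio of Stat3 over control probe (horizontal axis, dotted lines at 2-fold) of the 6 members under 8 scales (vertical axis). miR-15b lies between 3.26 and 6.19 on every scale shown, and the other 5 members lie on either side of 0 depending on the scale.

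Most of the miRNAs listed for macrophages were measured, as were some of those listed for other cells. Of 6 miRNAs listed for macrophages and myeloid cells, 5 were measured in both pull-downs, with control Ct values from 27.19 for miR-21 to 32.09 for miR-223. No well with a Ct below 35 could be matched to miR-142-5p. Of 15 for other kinds of cell, 7 had no matched well with a Ct below 35, including all 4 muscle miRNAs. Another 4 were below 35 only with the control probe, among them the neural miR-124 at 32.76. The 4 below 35 in both were the neural miR-9, endothelial miR-126-3p, epithelial miR-200c and erythroid miR-451. With the control and the Stat3 probe, miR-9 gave 33.40 and 31.25 cycles, miR-126-3p 33.27 and 31.58, and miR-200c 33.71 and 34.70. The assay of miR-200b is among the 7, but a rat-named miR-200b assay gave 33.94 cycles in the control pull-down and no Ct in the other. The lowest control Ct among the 15 was that of miR-451, at 30.47, within the range of the miRNAs listed for macrophages. That value rests on telling its well from that of a spike-in with the same ratio.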

How the data were processed

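The plate files are exports of SDS 2.3 with a manual threshold of 0.15, per the file headers, and hold a raw Ct in cycles for 384 wells, deposited without normalization or assay names. PCR used SYBR green on Exiqon arrays, per the labels' protocols. The authors' deposited table holds 1 ratio per named assay; its header says log fold change, but its values are linear fold ratios. Sorted, they matched within 0.0005 the value of 2 raised to the Ct difference (control minus Stat3) plus 0.7, after capping Ct at 35. The cap and the offset were recovered from the values. A name was tied to a well where both agreed within 0.0006: 142 rows matched 1 well, the 6 members included, 4 matched a pair, and the 238 rows at the offset alone were left untied. For the pair of UniSp6 and miR-451, the lower Ct was taken as UniSp6. The other rows that matched a pair stayed untied, so an assay without a matched well may be among them. The matching was tested on simulated data.

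Assays below 35 cycles in both pull-downs were compared as log2 ratios, with no pseudocount or test. Fixed with the members and lists were the genes named: all members, other arms, the wider group, cluster neighbours, the 3 nearest assays and adjoining wells. The members and lists were chosen with earlier results of these data known. Alternatives changed the cap, the offset and the scale. Python 3.11.15 was used.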

Additional observations from a re-analysis of the deposited data

How the results depend on the processing

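With 1 pull-down per probe, the spread of 3 calibrator wells is the only error known, and miR-497 and miR-195 lie close to the limit of 35 cycles. No paired analysis was possible because each probe has 1 pull-down. The log2 ratio of miR-15b was between 3.26 and 7.08 over 13 settings, of which the changes of cap could not move it. Its place as the highest member could change only on the own-row scale, and did not there (3.67). Caps of 38 cycles or none could change no member, because every member Ct lay below 35. At 33 cycles miR-195 and miR-497 dropped out, and the 4 members left could not change.

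The family median log2 ratio, 1.43, became -0.64 relative to the median of all miRNA assays, -0.47 relative to the own-row median, -1.30 relative to the references miR-423-3p, miR-191 and miR-103, -0.68 relative to U6, and 0.14 relative to miR-103 and miR-191 alone. Relative to RNU5G it was 2.52. The count of members at least 2-fold higher, 4 (73.0% of all 100 assays), became 2 without the offset (56.0%). It became 1 on each of the 5 scales before RNU5G, against 16.0% of all assays relative to their median and 18.0% relative to the own-row median. The share of all assays was not counted relative to U6 or to the reference miRNAs. The span, 5.83, was 1.91 without miR-15b. Apart from the own-row scale, each scale subtracts a common value by construction and leaves the span as it is. In the same order, miR-16 was at -0.00037, -0.25, -0.66 and -0.039 on the first 4 of those scales. miR-195 was at -0.82, -1.07, -1.48, -0.86 and -0.036 on the 5. miR-322 was at -0.46 relative to all assays, -1.12 relative to the 3 references and -0.50 relative to U6. Of 70 alternative values of single members, 12 changed the sign of a ratio that was at least 2-fold as deposited, all of them of miR-16, miR-195 or miR-322. Of the others, 36 moved by less than the calibrator SD or not at all, every change of cap among them, and 22 by more. Of these, 2 and 9 crossed 0, all for miR-15a or miR-497.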
